A study of Homo sapiens with 12 samples.

Results

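The genes described here are 9 transcription factors of the neural crest and the dorsal neural tube: PAX3, PAX7, SOX10, TFAP2A, TFAP2B, FOXD3, SNAI2, TWIST1 and SCX. They were taken as a list of gene symbols for their known roles, with earlier results of these data known, and all 9 are among the 25718 genes counted in the series. The 12 samples were cultures of H9, an established human embryonic stem cell line, infected with a lentivirus that carries miR-10a or miR-10b together with GFP. Both vectors are switched on by doxycycline (dox). All cultures underwent 14 days of neural induction and were patterned towards the ventral midbrain with sonic hedgehog and the GSK3 inhibitor CT99021. Of each vector, 3 cultures received dox from day 11 to day 14 and 3 received none, and all 12 were harvested on day 14. The question was which transcripts respond to a short pulse of miR-10 in human neural progenitors. Every culture carried a miR-10 vector and no culture with a GFP-only vector is among the 12 analysed here, so that dox itself and the miR-10 it induces cannot be told apart. Likewise, a difference between the miR-10a and the miR-10b cultures cannot be told apart from a difference between separately infected and differentiated cells. The labels do not say whether the 3 replicates of a group were separate differentiations, so p-values measure only the spread between these samples, which may be technical.

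RNA was sequenced as mRNA and counted on RefSeq transcripts, with between 10545487 and 14165426 counts per sample. The level of a gene is its CPM (count per 1000000 counts of the sample), and the detection floor of 3 counts equals 0.212 to 0.284 CPM. Every culture without dox had a higher total count than every dox culture of its vector. Replicate 2 of the miR-10b dox group stood apart from its replicates, with a chi-square per degree of freedom of 3.17 and 4.11 against 1.22 to 1.93 in the other pairs of replicates. The primary transcripts rose with dox, MIR10A from 0.999 ± 0.363 to 724 ± 10.8 CPM (SD, n = 3) and MIR10B from 3.55 ± 0.81 to 2619 ± 67 CPM (SD, n = 3). Of the ventral midbrain and floor plate genes that fit the labelled identity, the ligand SHH had a mean of 586 CPM over the 12 cultures, the pioneer factor FOXA1 had 497 CPM and the midbrain factor EN1 had 100.2 CPM. Other defining genes were low, among them the midbrain factor EN2, with 1 transcript, at 6.90 CPM. Also low were LMX1A at 4.94, FOXA2 at 7.67 and OTX2 at 0.506 CPM and LMX1B without a read, which are all genes of several transcripts. The counting appears to leave out most reads that several transcripts of a gene share, so that the counts of such genes, among them PAX3 (8 transcripts), PAX7 (3 transcripts) and TFAP2A (3 transcripts), may understate their expression. The other 6 factors have 1 RefSeq transcript each.

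The neural crest forms at the border between the neural plate and the surface ectoderm, at the dorsal edge of the neural tube, which is the side opposite the floor plate. PAX3, PAX7 and the TFAP2 factors act early, at the border. FOXD3, SNAI2 and SOX10 then mark premigratory and migrating crest cells, TWIST1 acts when crest and mesodermal cells take on a mesenchymal character, and SCX, or scleraxis, marks progenitors of tendon and other connective tissue. Sonic hedgehog is known to repress dorsal genes such as PAX3 and PAX7. Per the methods, it was in the medium early in the differentiation, together with noggin, and no longer when dox was added. The part of either in the levels given here was not tested.

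A microRNA pairs with target mRNAs mainly through its seed, bases 2 to 8 from its 5′ end. The mature sequence of miR-10a is shown because the matches listed next are defined by it. It is credited to RefSeq (GRCh38.p14, chromosome 17, bases 48579904 to 48579926, minus strand), and capitals mark the seed.
hsa-miR-10a-5p: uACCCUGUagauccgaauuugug

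The 3′UTR of the canonical transcript of each of the 9 genes (GENCODE 44 on GRCh37) was searched on the mRNA strand for ACAGGGTA (8mer), ACAGGGT (7mer-m8), CAGGGTA (7mer-A1) and CAGGGT (6mer). Each match was counted once, as the longest kind it fits. The 4 matches found are shown with their flanks, since they are the places in these mRNAs where the seed could pair, with the match in capitals.
TFAP2A 3′UTR: ggagttcagagCAGGGTAtcatttagata
TFAP2B 3′UTR: acttggcaaggCAGGGTAccttcattgcc
FOXD3 3′UTR: tggccgggaccCAGGGTccggcggcggc
SOX10 3′UTR: aggggaagcacCAGGGTtggtggcatcg

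The capitals lie on chromosome 6, bases 10397081 to 10397087, for TFAP2A (minus strand) and on chromosome 6, bases 50813838 to 50813844, for TFAP2B (plus strand). Those of FOXD3 lie on chromosome 1, bases 63790189 to 63790194 (plus strand), and those of SOX10 on chromosome 22, bases 38369155 to 38369160 (minus strand). Thus 4 of 9 factors had a match, all of the 2 weaker kinds, and 5 had none, among them the 3 with enough reads to be tested. Among 9234 tested genes whose canonical transcript has a 3′UTR, 37.8% had a match of some kind and 2.36% had an 8mer. A match in these letters is a description of the sequence, and none of the 4 genes with a match had enough reads for a test of its mRNA level.

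To see which of the factors were expressed at all, their levels were compared per kilobase of transcript. TWIST1 was by far the most abundant, with a mean of 42.9 CPM per kilobase over the 12 cultures. SCX followed with 1.33 and SNAI2 with 1.15 CPM per kilobase, and their ranges over the cultures (0.812 to 2.26 and 0.764 to 1.51) overlapped. The files give SCX a length of 2006 bases, whereas the exons of 1 copy in GENCODE hold 1106, with which SCX would have a mean of 2.42 CPM per kilobase and a range of 1.47 to 4.09, which only just overlaps that of SNAI2. SOX10 had 0.216 and PAX7 0.102 CPM per kilobase, with overlapping ranges. PAX3 (0.0465), FOXD3 (0.0364), TFAP2A (0.0183) and TFAP2B (0.00469 CPM per kilobase) had at most 3 reads in any culture, so that no order among them can be read. The level of TWIST1 in the lowest culture, 28.8 CPM per kilobase, was above that of every other factor in every culture.

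A mean above 10 counts over the 12 cultures was required for the test (the quasi-likelihood test of edgeR, p-values adjusted by Benjamini-Hochberg over 11451 genes, threshold 0.05). TWIST1, SNAI2 and SCX passed it, and the other 6 factors did not. With dox, 1 of the 3 tested factors was called higher in miR-10a cultures, where 0.472% of all tested genes were called higher. In miR-10b cultures it was also 1 of 3, where 8.18% were called higher, and over both vectors 1 of 3, where 7.67% were. The gene was SCX each time. None of the 3 was called lower with dox, where 0.742% of all tested genes were called lower with miR-10a, 7.15% with miR-10b and 6.22% over both. Between the cultures without dox, 1 of 3, TWIST1, was called higher with the miR-10b vector, where 7.41% of tested genes were, and 0 were called lower, where 6.72% were. At an unadjusted p under 0.05, too, 0 factors were lower in each of these contrasts, by edgeR and by DESeq2. The direction of the background depends on the scaling: with TMM factors, 766 genes were higher and 963 lower with miR-10b, against 937 and 819 with the total count, and 665 were higher and 852 lower over both vectors, against 878 and 712.

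TWIST1, a basic helix-loop-helix factor of mesenchymal cells (NM_000474, GRCh37 chromosome 7, bases 19155091 to 19157259, minus strand, 2 exons), did not respond measurably to dox but differed between the vectors. In miR-10a cultures without dox it had 49.8, 48.7 and 49.6 CPM, and with dox 54.7, 48.1 and 48.0 CPM. In miR-10b cultures without dox it had 90.8, 96.2 and 92.6 CPM, and with dox 96.5, 87.4 and 94.3 CPM. Every miR-10b culture was thus well above every miR-10a culture, and the dox and no-dox cultures of each vector overlapped. These values rest on 506 to 1299 reads per culture.

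Without dox, the mean of TWIST1 was 93.2 ± 2.8 CPM (SD, n = 3) in miR-10b cultures and 49.4 ± 0.6 CPM (SD, n = 3) in miR-10a cultures. The difference was 1.89-fold (95% confidence interval 1.76 to 2.03, log2 0.92, standard error 0.05), with an adjusted p of 2.21e-16 by edgeR. An exact two-sided permutation test gave p = 0.1, the smallest that 3 against 3 samples allow. With dox the means were 92.7 ± 4.7 and 50.3 ± 3.8 CPM (SD, n = 3), again without overlap. The log2 change with dox was 0.03 (95% confidence interval -0.09 to 0.14, adjusted p = 0.927 by edgeR) with miR-10a. With miR-10b it was -0.01 (-0.10 to 0.09, adjusted p = 0.951 by edgeR). Over both vectors the interval of the fold change was 0.954 to 1.06. A change of TWIST1 beyond these bounds was therefore not seen 3 days after induction.

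**Figure D1:**
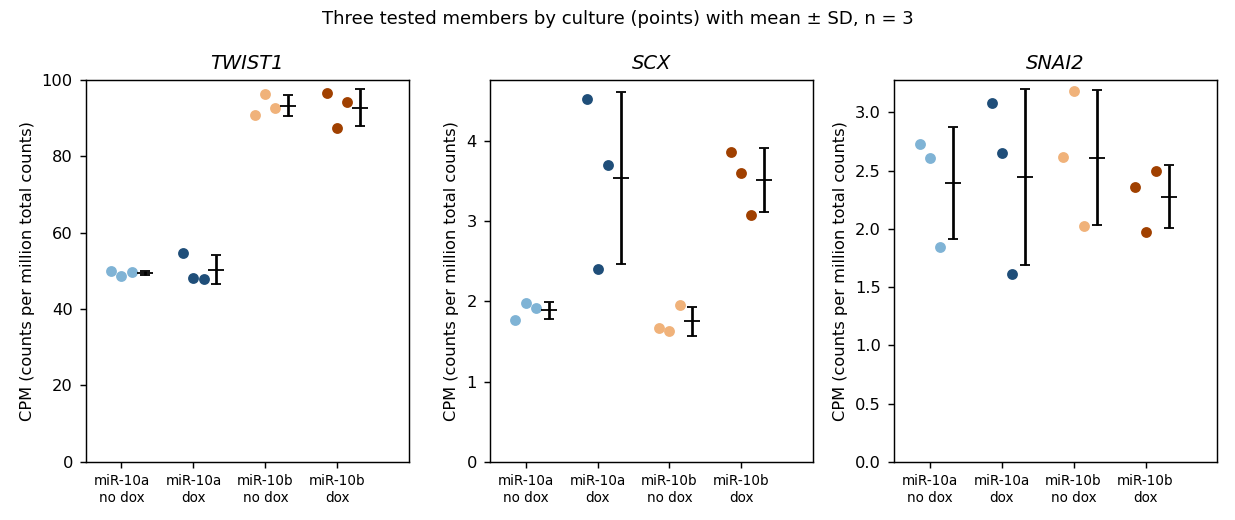
CPM (vertical axes, from 0) of TWIST1, SCX and SNAI2 in each of the 12 cultures (points), by vector and dox, with the mean and SD of 3 cultures as black bars. TWIST1 lies between 87.4 and 96.5 CPM in all miR-10b cultures and between 48.0 and 54.7 CPM in all miR-10a cultures, SCX is higher in the dox cultures of both vectors, and the groups overlap for SNAI2.

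SNAI2, the zinc finger factor also called Slug, which drives the delamination of crest cells (NM_003068, GRCh37 chromosome 8, bases 49830157 to 49833988, minus strand, 3 exons), was detected at a low level in all 12 cultures, with 17 to 43 reads each. In miR-10a cultures it had 2.73, 2.61 and 1.84 CPM without dox and 3.08, 2.65 and 1.61 CPM with it. In miR-10b cultures it had 2.62, 3.19 and 2.03 CPM without dox and 2.36, 1.97 and 2.49 CPM with it. The groups overlapped in every comparison. The log2 change with dox was 0.04 (95% confidence interval -0.44 to 0.51, adjusted p = 0.981 by edgeR) with miR-10a. It was -0.20 (-0.67 to 0.27, adjusted p = 0.633 by edgeR) with miR-10b. Without dox, the miR-10b cultures had 2.61 ± 0.58 and the miR-10a cultures 2.40 ± 0.48 CPM (SD, n = 3), a log2 difference of 0.12 (-0.33 to 0.57, adjusted p = 0.808 by edgeR). SNAI2 and TWIST1 are often named together as factors of the epithelial to mesenchymal transition, and the interval of SNAI2 between the vectors, at most 1.49-fold, lay below that of TWIST1, at least 1.76-fold.

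SCX was the only tested factor called with dox. In miR-10a cultures it had 1.77, 1.98 and 1.92 CPM without dox and 4.53, 2.40 and 3.70 CPM with it. In miR-10b cultures it had 1.67, 1.63 and 1.95 CPM without dox and 3.87, 3.60 and 3.08 CPM with it. With each vector, every dox culture was above every culture without dox, and the miR-10a dox cultures spread the most. The values rest on 21 to 50 reads per culture.

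The mean of SCX rose from 1.89 ± 0.11 to 3.54 ± 1.07 CPM (SD, n = 3) with miR-10a, a fold change of 1.85 (95% confidence interval 1.36 to 2.52) with an adjusted p of 0.0308 by edgeR. It rose from 1.75 ± 0.18 to 3.52 ± 0.40 CPM (SD, n = 3) with miR-10b, a fold change of 2.00 (1.47 to 2.73) with an adjusted p of 0.00123 by edgeR. The exact permutation test gave p = 0.1 for each vector. Over both vectors SCX was 1.92-fold higher (1.55 to 2.39, adjusted p = 3.24e-05 by edgeR). The difference between the 2 effects was 0.11 on the log2 scale (-0.53 to 0.76, adjusted p = 0.920 by edgeR), and 0 of the 3 tested factors were called for such a difference, where 1.96% of all tested genes were. For that difference, 0 factors had an unadjusted p under 0.05 by edgeR or DESeq2.

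The call of SCX with miR-10a alone rests on few reads. The log2 change was 0.89 in the full fit and 0.67 to 1.12 with single samples left out, but the call was lost without dox replicate 1 (0.67, adjusted p = 0.338 by edgeR) and without dox replicate 3 (0.85, adjusted p = 0.108). It was also lost without replicate 1, 2 or 3 of the miR-10a cultures without dox (0.84, 0.92 and 0.90, adjusted p = 0.130, 0.0776 and 0.0947) and with all libraries thinned to the smallest total count (0.81, adjusted p = 0.0704). The calls with miR-10b and over both vectors held in each of those fits, and without replicate 2 of the miR-10b dox group, which stood apart, the log2 change with miR-10b was 0.98 (adjusted p = 0.00354 by edgeR). SCX lies in GRCh37 on chromosome 8, bases 145321356 to 145323384, plus strand, with 2 exons, and its transcript (NM_001080514) is listed on 2 rows of the files with the same counts. All 1008 of the 1008 windows of 50 bases, the read length, in its exons occur a second time on that chromosome, within the span of BOP1, a ribosome biogenesis gene. In the annotation its exons also overlap SCXB, on the same strand. Reads of SCX can therefore not be assigned to one copy, and how reads that map to several places were counted is not given in the sources used here, so that what the 21 to 50 reads represent is unknown to that extent. BOP1 itself had 37.1 CPM without and 36.4 CPM with dox in miR-10a cultures and 32.4 and 35.1 CPM in miR-10b cultures. Its log2 change over both vectors was 0.05 (adjusted p = 0.569 by edgeR).

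**Figure D2:**
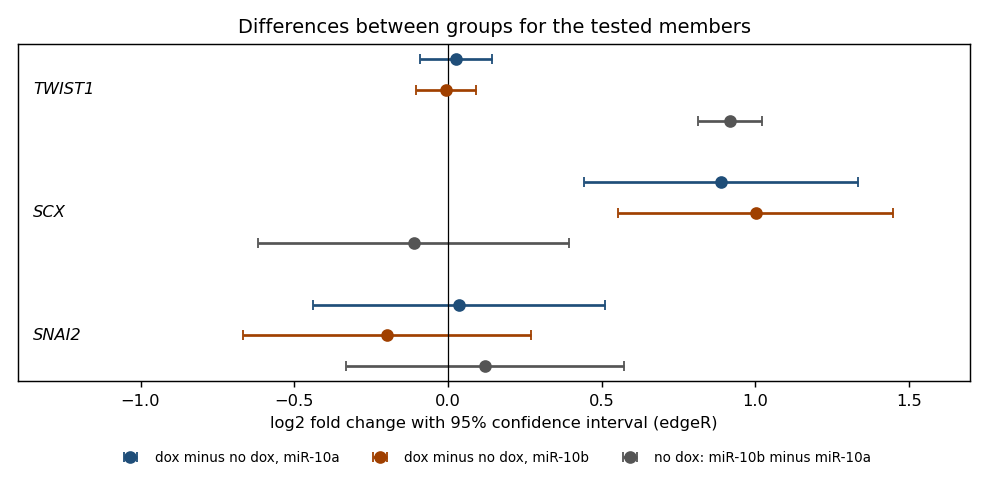
Log2 fold change (horizontal axis) with its 95% confidence interval for TWIST1, SCX and SNAI2, for dox against no dox with each vector and for miR-10b against miR-10a cultures without dox. The dox intervals of SCX lie above 0 with both vectors (log2 0.89 and 1.00), that of TWIST1 does so between the vectors (0.92), and the other intervals include 0.

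The 6 remaining factors lay at or near the detection limit. The border factor PAX7 had 8, 12 and 8 reads in miR-10a cultures without dox and 8, 9 and 9 with it. In miR-10b cultures it had 8, 1 and 12 reads without dox and 5, 4 and 7 with it. Its groups overlapped for dox with both vectors, at means of 0.710 ± 0.118 and 0.774 ± 0.069 CPM (SD, n = 3) with miR-10a and 0.537 ± 0.422 and 0.449 ± 0.122 CPM (SD, n = 3) with miR-10b. A fit without the count filter gave adjusted p = 1.00 and 0.885 for these by edgeR. Between the vectors, the PAX7 groups overlapped without dox. With dox every miR-10b culture was below every miR-10a culture in CPM (exact permutation p = 0.1, adjusted p = 0.386 by edgeR in that fit).

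SOX10, which maintains migrating crest cells and drives glial and pigment cell fates (NM_006941, GRCh37 chromosome 22, bases 38368319 to 38380562, minus strand, 4 exons), had 10, 10 and 15 reads in miR-10a cultures without dox and 7, 9 and 7 with it. In miR-10b cultures it had 4, 8 and 3 reads without dox and 6, 8 and 4 with it. Without dox, the miR-10b cultures had 0.379 ± 0.191 CPM (SD, n = 3), all below the 0.904 ± 0.263 CPM (SD, n = 3) of the miR-10a cultures. This is the opposite direction to TWIST1, but it did not pass the test: in the fit without the count filter the log2 difference was -1.21 (standard error 0.43, adjusted p = 0.0617 by edgeR), and the exact permutation test gave p = 0.1. With dox the vectors overlapped, at 0.508 ± 0.177 CPM with miR-10b and 0.681 ± 0.058 CPM with miR-10a (SD, n = 3). The log2 difference was then -0.43 (adjusted p = 0.679 by edgeR). Dox gave a log2 change of -0.39 (adjusted p = 0.842 by edgeR) with miR-10a and 0.40 (adjusted p = 0.745 by edgeR) with miR-10b, with overlapping groups.

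The other border and crest factors were close to absent from the counts. PAX3 had 0 to 3 reads per culture and 14 in all, and FOXD3, which keeps crest cells multipotent, had 0 to 2 and 11 in all. TFAP2A had 0 to 3 reads and 10 in all, and TFAP2B had 4 in all, with no read in 10 of the 12 cultures. The 3 miR-10a cultures without dox held 0 reads of TFAP2B together, which allows at most 0.0944 CPM. The 3 miR-10b cultures with dox also held 0, which allows at most 0.104 CPM. Both limits are upper ends of exact two-sided 95% Poisson intervals, which cover counting error only. A few of these groups did not overlap in CPM although their read numbers did. TFAP2A had 1, 3 and 1 reads with miR-10a and dox and 0, 0 and 1 without dox, where 1 read equals fewer CPM in the larger library. All values are at or below the 3-count floor and no fold change is given. A difference between groups was not detectable for these 4 factors at this depth. Exons of FOXD3 and TFAP2A overlap antisense genes, and the sources used here do not say whether counting used the strand.

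**Figure D3:**
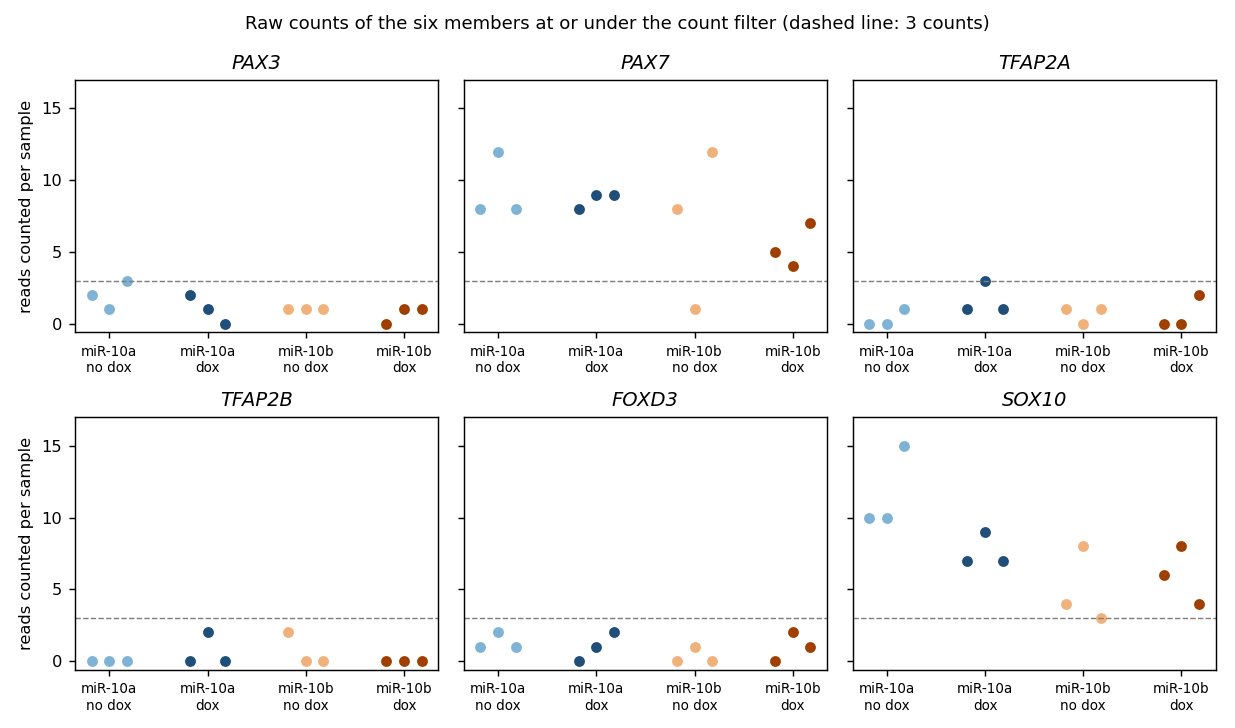
Reads counted per culture (vertical axis) for the 6 factors that did not pass the count filter, by vector and dox, with a dashed line at the floor of 3 counts. PAX3, TFAP2A, TFAP2B and FOXD3 stay at 0 to 3 reads in all cultures, PAX7 and SOX10 reach 12 and 15, and SOX10 is at 10 to 15 reads in the miR-10a and 3 to 8 reads in the miR-10b cultures without dox.

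To place the factors among the genes that act with them, lists of other border, crest, mesenchymal and neural genes were counted in the same fit. Among border and dorsal neural tube factors, 11 of 15 could be tested. Over both vectors, ZIC1, ZIC2 and MSX1 were called lower with dox, where 6.22% of all tested genes were. ZIC1, a zinc finger factor of the dorsal neural tube, fell the furthest, from 4.25 ± 0.08 to 2.74 ± 0.38 CPM (SD, n = 3) with miR-10a and from 6.64 ± 0.72 to 3.63 ± 0.29 CPM (SD, n = 3) with miR-10b. Its log2 change over both vectors was -0.75 (adjusted p = 1.17e-05 by edgeR). ZIC2 fell by 0.20 (adjusted p = 0.0117) and MSX1 fell by 0.21 (adjusted p = 0.0103) on the log2 scale. With miR-10a alone, none of ZIC1, ZIC2 and MSX1 was called (adjusted p = 0.0675, 0.553 and 0.319 by edgeR). With miR-10b alone, ZIC1 and ZIC2 were called (adjusted p = 5.30e-05 and 0.0188 by edgeR) and MSX1 was not (0.0544). The median of the list was -0.03, beside 0.01 for all tested genes. ATOH1 and GSX2, dorsal and lateral genes with 1 transcript each, had at most 1 read in any culture.

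Of the other crest transcription factors, 16 of 24 were tested and 0 were higher and 2 lower over both vectors, ID4 (log2 -0.20, adjusted p = 2.58e-08 by edgeR), an inhibitor of basic helix-loop-helix factors, and MYC (-0.24, adjusted p = 0.00183). At an unadjusted p under 0.05, 4 were higher, and DESeq2 called 0 higher among the genes to which it gave an adjusted p, which in each list leaves out genes of low count. ID4, at 1068 CPM over the 12 cultures, and the nuclear receptor NR2F1, at 1092 CPM, were the most abundant, and neural progenitors also express both. The list median was -0.02. Of the crest receptors, adhesion and matrix genes, 9 of 16 were tested, of which 3 were higher and 2 lower over both vectors. The neurotrophin receptor NGFR was higher by 0.25 (adjusted p = 0.00019), the neuregulin receptor ERBB3 by 0.38 (adjusted p = 0.0441) and the integrin ITGA4 by 0.30 (adjusted p = 0.00538) on the log2 scale, while RHOB (-0.11) and CDH2 (-0.06) were lower. DESeq2 called 2 higher and 2 lower and gave ERBB3 no adjusted p. With miR-10a alone none of these 5 was called, and RHOB, a small GTPase, differed between the vectors: its log2 change was 0.03 (adjusted p = 0.822) with miR-10a and -0.25 (adjusted p = 6.61e-07) with miR-10b, a difference of -0.28 (adjusted p = 0.000415 by edgeR). The list median over both vectors was 0.06. For genes of crest derivatives, 8 of 15 were tested and 0 were called over both vectors, by edgeR or DESeq2 and also at an unadjusted p under 0.05, with a median of -0.02. With miR-10b 1 was lower, the sensory neuron factor POU4F1 (log2 -0.59, adjusted p = 0.00536 by edgeR, beside 0.15 and adjusted p = 0.855 with miR-10a), to which DESeq2 gave no adjusted p. The pigment cell enzyme TYR, the glial gene S100B and the sympathetic factor HAND2, each with 1 transcript, had at most 3 reads in any culture. NEUROG2 (85.7 CPM), a proneural factor, and FABP7 (161 CPM), a gene of radial glia, were the most abundant of that list.

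SCX was called higher with dox, whereas none of the other tested genes of tendon and connective tissue was. Of these genes, 10 of 16 were tested and over both vectors 0 were higher and 1 lower, with a median of -0.07, and at an unadjusted p under 0.05 or by DESeq2 0 were higher too. With miR-10a none was called by edgeR or DESeq2, with 3 higher and 1 lower at an unadjusted p under 0.05. With miR-10b, 0 were higher and 4 lower: COL1A1 (log2 -0.60, adjusted p = 9.98e-09 by edgeR) and COL3A1 (-0.21, adjusted p = 0.000377), which encode fibrillar collagens, the matrix glycoprotein gene TNC (-0.37, adjusted p = 0.000329) and EGR1 (-0.25, adjusted p = 0.00246), a zinc finger factor. These 4 were also called for a difference between the vectors' dox effects, and COL1A1 was 102 ± 11 CPM without and 67.4 ± 7.4 CPM (SD, n = 3) with dox in miR-10b cultures and 45.6 ± 1.4 and 47.3 ± 3.8 CPM (SD, n = 3) in miR-10a cultures. TNMD, the tendon gene tenomodulin, with 1 transcript, had 0 to 5 reads. Of surface ectoderm and epithelial genes, 4 of 11 were tested and 0 were called over both vectors, by either tool and at an unadjusted p under 0.05, while with miR-10b 1 was lower, the claudin CLDN6 (log2 -0.78, adjusted p = 0.00886 by edgeR, beside 0.26 and adjusted p = 0.790 with miR-10a), to which DESeq2 gave no adjusted p. CLDN6 was also the 1 of 4 that was higher in miR-10b than in miR-10a cultures without dox. KRT5 had no read in any culture and KRT14 had at most 1.

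The higher TWIST1 of the miR-10b cultures without dox stood beside higher mesenchymal genes. Of the tendon and connective tissue genes, 7 of 10 tested were higher than in miR-10a cultures and 0 were lower, by edgeR and DESeq2. Of all tested genes, 7.41% were higher and 6.72% lower by edgeR. The median log2 difference of the list was 0.70, beside -0.01 for all tested genes. COL3A1 had 135 ± 4 against 35.1 ± 2.0 CPM, TNC 84.7 ± 10.1 against 20.6 ± 2.9 CPM, COL1A1 102 ± 11 against 45.6 ± 1.4 CPM and EGR1 135 ± 8 against 90.3 ± 10.3 CPM (SD, n = 3). The tested genes not called were COL1A2 (log2 -0.22), THBS4 (-0.11) and PDGFRB (0.23), with adjusted p = 0.495, 0.355 and 0.0878 by edgeR. The summed level of the 16 genes was 567 to 606 CPM in miR-10b and 284 to 299 CPM in miR-10a cultures without dox. With dox it was 464 to 509 CPM and 302 to 320 CPM, while TWIST1 was not called with dox for either vector. Whether the same cells held these transcripts was not tested, and in bulk RNA more cells of a type and more RNA per cell cannot be told apart.

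The miR-10b cultures without dox also had higher floor plate genes, so that TWIST1 did not stand beside mesenchymal genes alone. Of the ventral midbrain genes, 8 of 12 tested were higher and 2 lower, with a median log2 difference of 0.51. SPON1, a secreted floor plate protein, had 1169 ± 31 against 802 ± 7 CPM, and CORIN, a floor plate protease, had 21.8 ± 1.2 against 7.10 ± 0.85 CPM (SD, n = 3). NKX2-2, a factor of the neighbouring ventral domain, was lower, at 33.0 ± 1.4 against 55.7 ± 2.2 CPM (SD, n = 3). With dox, over both vectors, 1 of 12 was higher, SPON1 (log2 0.23, adjusted p = 1.91e-10 by edgeR). Lower were 2, CORIN (-0.53, adjusted p = 1.17e-05) and NKX2-2 (-0.12, adjusted p = 0.0406), and the list median was 0.06. SPON1 was called with each vector alone. CORIN was called with miR-10b (-0.77, adjusted p = 6.28e-08 by edgeR) and not with miR-10a (-0.28, adjusted p = 0.423). NKX2-2 was called with neither vector alone (adjusted p = 0.187 with miR-10a and 0.390 with miR-10b by edgeR). NKX6-1, another gene of the list, was called higher with miR-10b (0.21, adjusted p = 0.00772 by edgeR) and not with miR-10a (-0.02, adjusted p = 0.945). Without dox the summed level of the list was 3259 to 3286 against 2322 to 2345 CPM, and its part in the difference of TWIST1 was not tested.

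In the crest lists, genes were called in both directions between the vectors. Among other crest transcription factors 3 of 16 were higher and 2 lower in miR-10b cultures without dox (median -0.06). Among border factors it was 3 of 11 and 2 (median 0.02). Among crest receptors and adhesion genes it was 4 of 9 and 2 (median 0.08), and among genes of crest derivatives 2 of 8 and 1 (median -0.06). Of all tested genes, 7.41% were higher and 6.72% lower. Each of these lists held larger shares in both directions, which was not tested. SOX8 and SOX9 are the close relatives of SOX10, and their values were looked up after that of SOX10 was seen. SOX8 was 17.9 ± 0.8 against 25.4 ± 0.4 CPM (SD, n = 3), a log2 difference of -0.50 (adjusted p = 5.40e-06 by edgeR), whereas SOX9 was 52.6 ± 2.2 against 53.8 ± 2.6 CPM (SD, n = 3, adjusted p = 0.798 by edgeR). NGFR was also lower, at 158 ± 11 against 232 ± 26 CPM (SD, n = 3, adjusted p = 2.74e-08 by edgeR). Other crest genes named above were higher in the miR-10b cultures without dox. Their log2 differences were 1.19 for POU4F1 (adjusted p = 7.18e-07 by edgeR), 0.68 for ITGA4 (8.6e-06) and 0.51 for RHOB (1.32e-14). For ID4 it was 0.48 (1.10e-14) and for NR2F1 0.31 (1.04e-10). Of pan-neural genes, 3 of 7 were higher and 2 lower, and over both vectors dox gave 0 higher and 4 lower, also by DESeq2 and with 0 higher at an unadjusted p under 0.05. Among them were NES (-0.09, adjusted p = 0.000792) and SOX3 (-0.26, adjusted p = 5.48e-07). With miR-10a alone neither NES nor SOX3 was called (log2 -0.04 and -0.12, adjusted p = 0.566 and 0.249 by edgeR). With miR-10b alone both were (-0.14 and -0.40, adjusted p = 0.000338 and 3.1e-07 by edgeR). SOX3 was also called for a difference between the vectors' dox effects (-0.28, adjusted p = 0.0174 by edgeR). Of the pluripotency genes, 1 of 5, DPPA4, was tested, at 126 CPM over the 12 cultures. It was lower in miR-10b cultures without dox (log2 -0.43, adjusted p = 1.15e-09 by edgeR), and ZFP42 had at most 1 read.

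**Figure D4:**
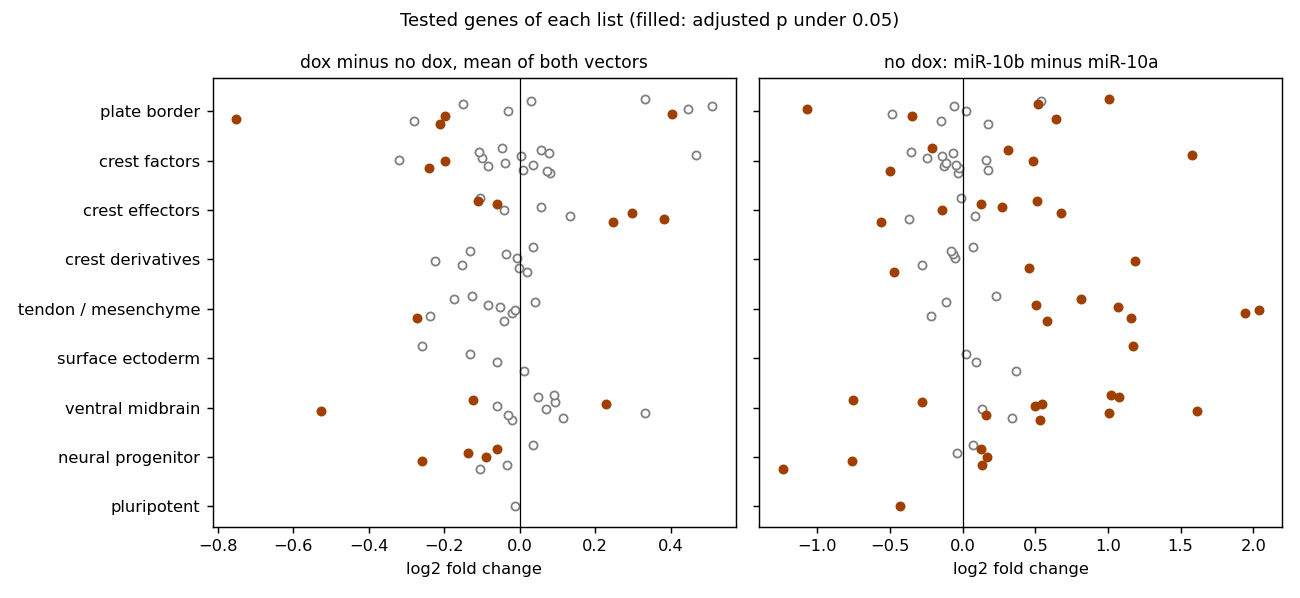
Log2 fold change (horizontal axes) of every tested gene of the 9 lists, 1 point per gene, for dox against no dox over both vectors (left) and for miR-10b against miR-10a cultures without dox (right). Filled points passed the threshold. On the right, 7 of 10 tendon and mesenchyme genes and 8 of 12 ventral midbrain genes are filled and above 0, and on the left the lists lie around 0 with ZIC1 lowest at -0.75.

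The genes whose pattern over the 12 cultures was most like that of each tested factor were found by the root mean square difference of centred log2(CPM + 0.5). For TWIST1 these were RASGRF2 (0.0739) and ADAMTS9 (0.0787), where the median over all genes was 0.472. RASGRF2 had means of 34.2, 36.3, 64.4 and 67.3 CPM in the miR-10a cultures without and with dox and the miR-10b cultures without and with dox, and ADAMTS9 had 355, 365, 619 and 655 CPM. For SCX they were PCP4L1 (0.181) and ANKRD20A19P (0.206), against a median of 0.446. PCP4L1 had 0.764, 1.62, 0.740 and 1.68 CPM in the same order of groups. For SNAI2 they were GPT2 (0.119) and LOC654342 (0.147), against a median of 0.272. Around its own mean SNAI2 varied by a root mean square of 0.236, beside 0.451 for TWIST1 and 0.432 for SCX. SNAI2 had 17 to 43 reads per culture and was called in no contrast, and whether its pattern exceeds counting error was not tested.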

How the data were processed

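Per the labels and methods, 50-base single-end reads of 12 poly-A enriched libraries were mapped by the authors to hg19 and counted on RefSeq transcripts. The submitters' processing notes name STAR, featureCounts and Subread, whose versions are not given in the sources used here. The labels name miRNeasy and Illumina kits, the methods RNeasy and NuGEN Ovation kits. The deposited values are raw counts per transcript, with the transcript length as another column. Each file held 51799 rows for 48101 transcripts, and 3698 repeated rows were dropped. A gene with several transcripts was represented by that with the largest mean count. Genes with 1 transcript held 92.8% of all counts.

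Differences in counts were assessed in R 4.3.3 with edgeR 4.0.16 (glmQLFit, then glmQLFTest, total count as library size, 4 group means in one fit, mean above 10 counts, Benjamini-Hochberg adjustment) by code tested on simulated data. Single genes were compared by exact two-sided permutation of mean CPM. Intervals are at 95%. The named genes were the 9 factors. From each list they were up to 4 genes past the threshold with dox (largest log2 change over both vectors first), the 2 most abundant and defining genes near 0. For each tested factor they were also the 2 genes most alike. FOXA1, FOXA2, EN1, EN2, LMX1A, SOX8 and SOX9 fall outside this rule or were singled out after their values were seen. The same holds for COL1A2, THBS4, PDGFRB and DPPA4, and for FERD3L below. The result of 1 listed border gene is not reported here. The 9 factors and the lists were chosen with earlier results of these data known. Alternatives were TMM factors, DESeq2 1.42.0, 2 other count filters, a replicate block, each vector alone, summed transcripts, thinned counts, totals without the precursors and leaving out each sample. Python 3.11.15, pandas 2.3.3 and scipy 1.17.1 were used.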

Additional observations from a re-analysis of the deposited data

How the results depend on the processing

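TWIST1 without dox and SCX with miR-10b and over both vectors kept their direction and call in every alternative that tested them, with log2 differences of 0.894 to 0.936, 0.926 to 1.09 and 0.834 to 1.06. With a mean above 50 counts SCX was not tested, which leaves 0 factors called with miR-10a, with miR-10b and over both vectors. The number called with miR-10a was also 0 with thinned counts, and 0 to 1 leaving out single samples, since SCX is near the threshold there. DESeq2 gave SCX no adjusted p with dox (log2 0.887, 0.985 and 0.936 with miR-10a, miR-10b and both). Values near 0 that were not called changed sign. Over both vectors SNAI2 was 7.437e-05 with thinned counts, and TWIST1 was -0.0032 with TMM factors and -0.0066 with DESeq2. Leaving out single samples, SNAI2 lay between -0.152 and 0.247 with miR-10a, -0.175 and 0.0246 over both vectors and -0.0527 and 0.276 between the vectors. TWIST1 then lay between -0.0390 and 0.0582 with miR-10a, -0.0369 and 0.0328 with miR-10b, -0.0232 and 0.0291 over both, and -0.0656 and 0.0316 for the difference of effects, where SCX lay between -0.118 and 0.335. Replicate numbers did not pair the samples (correlations of deviations across genes -0.0319 to 0.0082 for equal numbers), and the replicate block left 1 factor called with miR-10a, 1 with miR-10b, 1 over both vectors and 1 between the vectors, and 166 in place of 139 genes called with miR-10a. Of all tested genes, 275 were called with miR-10a in its own fit. That number was 75 without miR-10a dox replicate 1, 84 and 81 without replicates 1 and 3 of its controls, and 268 without miR-10b dox replicate 2. For the difference of effects it was 224, 343 with no count filter, 339 without miR-10b dox replicate 3 and 140 without miR-10a control replicate 2. DESeq2 called 498 genes higher and 808 lower with miR-10b and 459 and 740 over both vectors. For 6 of the 9 factors the mean was below 10 counts, and whether low expression, depth or the counting of shared reads sets this was not tested. Of these, SOX10, TFAP2B and FOXD3 have 1 transcript each, so that no transcripts of the same gene share their reads.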

Other observations

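FERD3L, a floor plate factor of the same basic helix-loop-helix class as TWIST1, is its neighbour on chromosome 7 (GRCh37, 27146 bases away) and was looked up after its values were seen. It had 101.7 ± 1.4 against 50.0 ± 0.1 CPM (SD, n = 3) in the miR-10b and miR-10a cultures without dox, a log2 difference of 1.02 (adjusted p = 4.54e-19 by edgeR), next to 0.92 for TWIST1. With dox it had 109 ± 3 and 52.8 ± 1.9 CPM (SD, n = 3), and like TWIST1 it was not called with dox (adjusted p = 0.633 with miR-10a and 0.0857 with miR-10b). HDAC9, the other protein-coding gene within 500000 bases, had 0.808 and 1.08 CPM without dox (adjusted p = 0.507 by edgeR), and its level may be understated because it has several transcripts.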
